A study of Mus musculus with 2 samples.

Results

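The genes described here build the machinery that carries proteins into mitochondria and the machinery that shapes mitochondria. They were chosen by symbol: every gene named Timm or Tomm followed by a number, together with Mfn1, Mfn2, Opa1, Dnm1l, Fis1, Mff, Phb, Phb2, Hspd1, Hspe1 and Tfam. The rule found 37 genes of the 26878 that could be named on the array. The rule also takes in Tomm6os, an RNA from the strand opposite Tomm6 that is not part of the import machinery, and 36 members are the import and shape genes themselves. The cells were a mouse glioblastoma stem cell line, grown as neurospheres in serum-free medium with EGF and bFGF, from a tumour that a Sleeping Beauty (SB) transposon had induced. Control cells stably carried a lentiviral non-target hairpin RNA, and Stat5b-knockdown cells stably carried a lentiviral hairpin against Stat5b, a transcription factor that acts downstream of cytokine receptors. Each of the 2 groups was 1 single-colour array, so there were no replicates and no test was possible. Every difference below compares these 2 arrays and could not be set against a spread between cultures.

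Nearly all mitochondrial proteins are encoded in the nucleus, made in the cytosol and imported. The TOM complex of the outer membrane receives them, the TIM23 complex passes proteins with a cleavable leader into the matrix, the TIM22 complex inserts carrier proteins into the inner membrane, and small TIM chaperones escort hydrophobic proteins across the space between the membranes. Mitofusins and Opa1 fuse mitochondria, and the dynamin-related GTPase Dnm1l, recruited by outer membrane adaptors such as Mff, divides them.

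The arrays were similar in depth. Of 56594 probes, 59.5% were well above background in the control and 58.6% in the knockdown, and 0 spots were saturated. The Stat5b probe that was well above background on both arrays had a signal of 1991 in the control and 497.7 in the knockdown, a difference of -2.00 that matches the labels. Among stem cell markers, Nes, Vim, Cd44 and Sox9 were well above background on both arrays, while Sox2 and Fabp7 were well above background on neither. Of 8 microglia and immune cell markers, 6 were well above background on both arrays: Ptprc, Csf1r, Itgam, Cd68, C1qb and Tmem119. Aif1 and Cx3cr1 were so on neither, and C1qb and Tmem119 were dim in the control, at levels of -3.98 and -3.91. The differences of the 6 ran from -0.48 for Cd68 to 1.80 for Tmem119. The summed normalized log2 level of the 8 was 4.54 in the control and 4.69 in the knockdown. Of 6 fibroblast and mural cell markers, 5 were measured on both arrays and were 0.76 to 2.19 higher in the knockdown on the log2 scale, with a summed level of 1.38 in the control and 2.66 in the knockdown. The other marker of that list, Lum, went the opposite way: it was well above background in the control alone, at levels of -2.68 in the control and -7.26 in the knockdown. The part of these other cell type markers in the differences of the mitochondrial genes was not tested. In a culture measured in bulk, fewer cells of a type and less RNA per cell cannot be told apart.

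Levels are log2 signals relative to the 75th percentile of each array, and a difference is always knockdown minus control. The error written after ± comes from the scanner software and is not a spread between cultures. For comparison, the SD was 0.06 between spots of the same probe, and between probes of the same gene it was 0.31 over the whole array and 0.17 over the members. A gene was measured where at least 1 of its probes was well above background on both arrays, which left 36 of the 37 members. The limit for naming a gene higher or lower was 2-fold, a rule of size alone.

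Most of the import and dynamics genes had close to the same signal on both arrays, and a small set was lower in the knockdown. Tomm5 and Tomm22, subunits of the outer membrane gate, were the 2 members at least 2-fold lower, against 2.41% of all 16354 genes measured. At the other end 0 members were at least 2-fold higher, where 3.67% of all genes were. Tomm34, Timm29 and Tfam were 1.69-fold to 1.90-fold lower. With a 1.5-fold limit, chosen after the values were seen, these 5 members were lower (8.42% of all genes) and 0 were higher (11% of all genes). Of the 36, 26 lay within 1.25-fold of the control, as did 57.9% of all genes. The median difference over the 36 was -0.09, with 23 below 0 and 13 above, beside a median of 0.01 and 48.8% below 0 over all genes. Among the brighter genes of the array, those at or above the median level, 1.87% were at least 2-fold lower and 1.82% at least 2-fold higher, beside 2 and 0 of the 29 members in that range. At 1.5-fold, 625 of these 8177 genes were lower and 598 higher, beside 4 and 0 of the 29 members. Within 1.25-fold lay 63.6% of these genes and 22 of the 29 members (75.9%). The range of the members ran from -1.46 for Tomm5 to 0.33 for Timm17b.

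**Figure D1:**
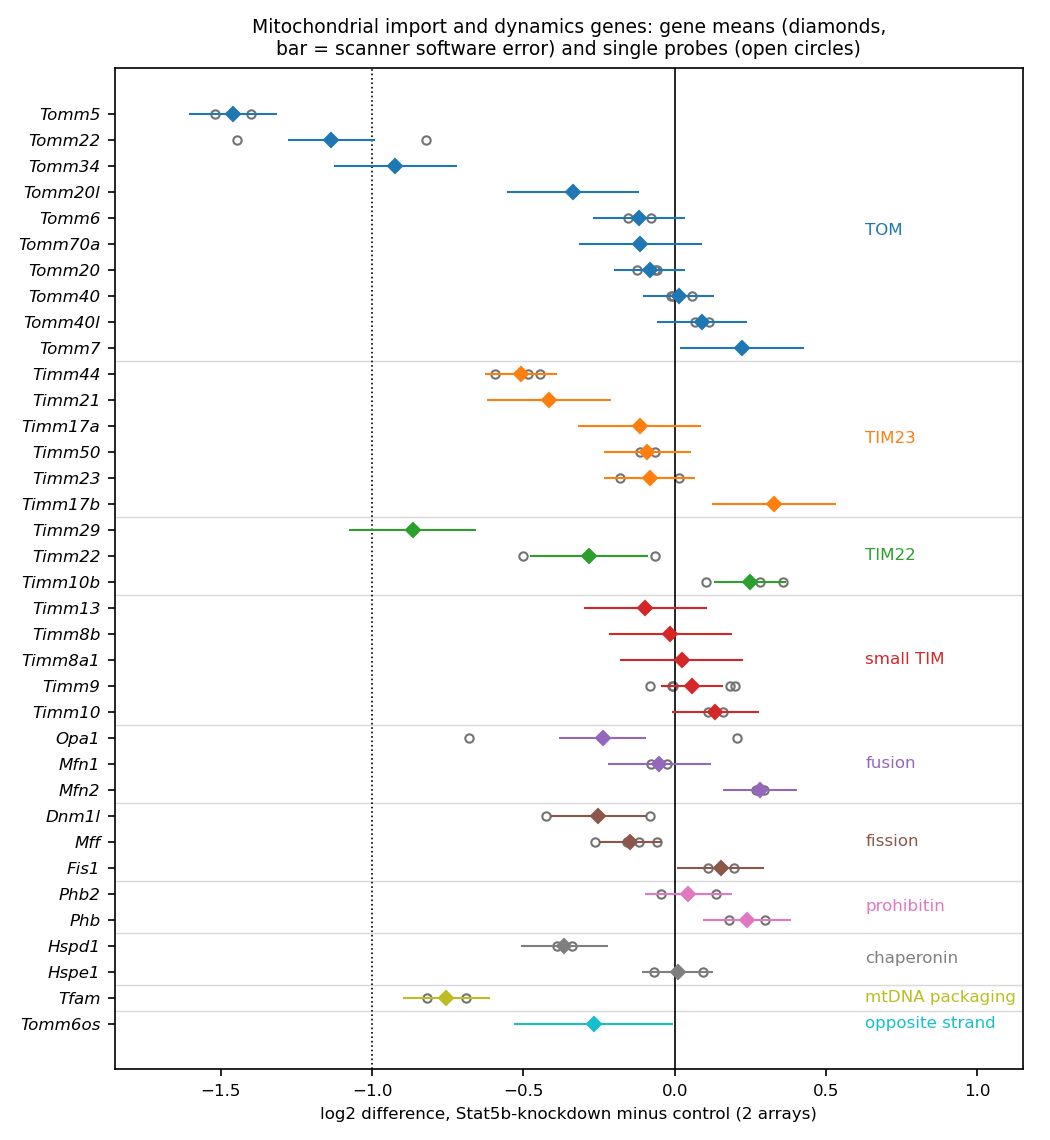
Log2 difference (knockdown minus control, x axis) of the 36 members measured on both arrays, grouped by role. Diamonds are gene means with the scanner software's error as bars, open circles are single probes, and the dotted line marks 2-fold lower; Tomm5 at -1.46 and Tomm22 at -1.13 lie beyond it, while the 5 small TIM genes sit between -0.10 and 0.13.

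The probes shown for Tomm5, Tomm22, Tfam and Opa1 read separate stretches of the transcripts, and Tomm34 was read by only 1 probe. The first 30 bases of each 60-base probe are printed. Opa1, whose probes disagreed, is included, and the only Timm29 probe is not shown. The longest run that any of these probes shared with another probe of its gene was 6 bases for Tomm5, Tomm22 and Tfam and 8 bases for Opa1.
Tomm5, brighter probe: gtctgtttggaagtcagcatacacccacaa
Tomm5, dimmer probe: gctgaaatataaagccacttgggaagtgca
Tomm22, brighter probe: gtttggctcttagacctgcttatgtataaa
Tomm22, dimmer probe: ctacctccacttcctggaaagatgtagatt
Tomm34, only probe: ccctcgggctcctttgttttgttttgtttt
Tfam, brighter probe: ctttgagccttgacagaagatgatgctgag
Tfam, dimmer probe: ctctgagcattaagatggaagacggagttg
Opa1, brighter probe: tttgcctgtgcttgacctaaggtcatttgt
Opa1, dimmer probe: cagcagcttacaaacactgaagttaggcga

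The TOM complex was split between genes with a low value in the knockdown and genes at the control level. Tomm5, a small subunit bound to the channel, had a signal of 37445 in the control and 14192 in the knockdown with its brighter probe, and of 14512 and 5069 with the other. Both probes thus read the knockdown at 34.9% to 37.9% of the control, a difference of -1.46 ± 0.14. Tomm22, the receptor that also holds the complex together, had signals of 47985 and 17600 with the brighter probe and of 25758 and 14584 with the other. Its probes differed in size, at -1.45 and -0.82, and their mean was -1.13 ± 0.14. Tomm34, a cytosolic co-chaperone that carries the TOM name but is no subunit of the complex, was read by 1 probe with signals of 18876 and 9964, a difference of -0.92 ± 0.20. All probes of these 3 genes were lower in the knockdown.

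The channel and the other receptors of the outer membrane stayed near the control value. Tomm40, which forms the channel, had signals of 13552 and 14103 with its brightest probe, and its 3 probes averaged 0.01 ± 0.12. Tomm20, the receptor for leader sequences, was at -0.08 ± 0.12 over 3 probes, of which a pair shares 40 bases. Tomm70a, the receptor for carrier proteins, had signals of 4236 and 3919 and was at -0.11 ± 0.20. The small subunits did not move together, since Tomm6 was at -0.12 ± 0.15 and Tomm7 at 0.22 ± 0.20, beside Tomm5 at -1.46. Set against Tomm40 on the same arrays, a comparison that no scaling of an array can alter, the knockdown had 36.0% of the control amount for Tomm5 and 45.1% for Tomm22, but 93.6% for Tomm20 and 116% for Tomm7. The remaining family members were Tomm40l, a relative of the channel gene, at 0.09 ± 0.15, and Tomm20l, a relative of the receptor gene, at -0.34 ± 0.22 from a dim probe with signals of 93.56 and 74.22. Tomm6os had signals of 34.98 and 29.07, a difference of -0.27 ± 0.26.

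**Figure D2:**
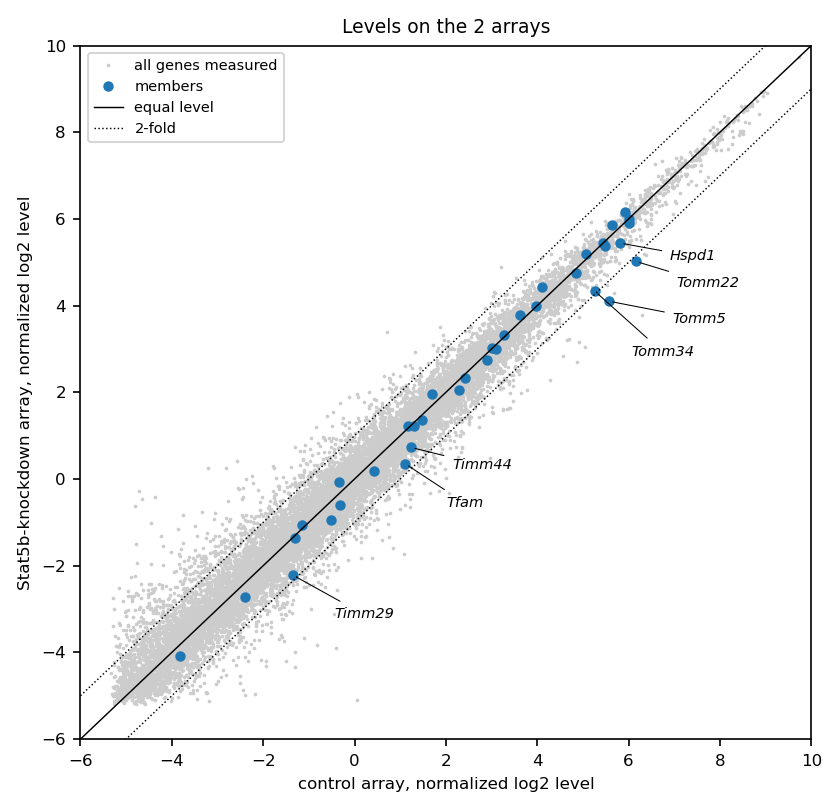
Normalized log2 level of each gene on the control array (x axis) and on the Stat5b-knockdown array (y axis), with all 16354 genes measured as grey points and the 36 members as blue points. The solid line marks equal levels and the dotted lines 2-fold; Tomm5 and Tomm22 lie below the lower dotted line among bright genes, and most other members lie close to the solid line.

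In the TIM23 complex of the inner membrane 5 of 6 genes were below 0, as were 48.8% of all genes, and 0 reached 2-fold in either direction, where 2.41% of all genes were lower and 3.67% higher. Timm44, which tethers the import motor to the channel, was at -0.51 ± 0.12, with signals of 7212 and 5162 for its brightest probe. Its 3 probes were close to each other, at -0.44 to -0.59. Timm21, which links the complex to TOM and to the respiratory chain, had signals of 344.3 and 258.1 with 1 probe and was at -0.42 ± 0.21. The channel genes were nearer to 0, with Timm23 at -0.08 ± 0.15 and Timm17a at -0.12 ± 0.20. Timm50, the receptor on the far side of TOM, was at -0.09 ± 0.14. Timm17b, the paralog of Timm17a, had the highest value of the 36, with signals of 8508 and 10693 and a difference of 0.33 ± 0.20. The Timm17 pair thus pointed in opposite directions, each read by 1 probe, and neither reached 1.5-fold.

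The TIM22 complex is represented by 3 genes, and their values spread widely. Timm29, a subunit found in animals, had signals of 193.4 and 106.1, or 54.9% of control, with a difference of -0.87 ± 0.21. That value rests on 1 probe, which lies among the last 64 of 384 rows on the array, so it has no value under the alternative that leaves those rows out. Timm22, the channel, was at -0.28 ± 0.19, but its bright probe, with signals of 5332 and 5096, gave -0.07, and the rest came from a dim probe at -0.50. Timm10b, a peripheral subunit, was at 0.25 ± 0.12 with 3 probes at 0.11 to 0.36. A further Timm10b probe passed the background filter only in the control, at signals of 14.29 and 6.67. The bound from it is 1.10-fold more in the control. The software's error of its log2 difference was 0.69, so no direction is read from this dim probe.

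The small TIM chaperones differed little among themselves, with an SD of 0.09 between genes beside 0.58 in the TOM group and 0.30 in the TIM23 group. All 5 that were measured on both arrays lay within 1.25-fold of the control, from -0.10 for Timm13 to 0.13 for Timm10. So did 57.9% of all genes and 63.6% of the genes at or above the median level. Timm9 and Timm10, which form 1 chaperone ring, were at 0.06 ± 0.10 over 5 probes and 0.13 ± 0.14 over 2 probes. Timm13 was at -0.10 ± 0.20, and its partners in the other ring, Timm8a1 and Timm8b, were at 0.02 ± 0.20 and -0.01 ± 0.20. Timm8b, with signals of 31931 and 31646, was also read only in the last rows. Timm8a2 passed the background filter only in the control, with signals of 15.21 and 3.024, so that only a bound of 1.17-fold more in the control can be given. The software's error of its log2 difference was 1.33.

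No gene of fusion or fission reached 1.25-fold in its mean, and 57.9% of all genes also lay within 1.25-fold. Opa1 stayed within that limit only by averaging probes that disagreed. Opa1, the GTPase that fuses inner membranes, had signals of 2593 and 2991 with its brighter probe and of 2220 and 1386 with the other. The probes, shown above and designed to different transcripts, read 0.20 and -0.68, so the mean of -0.24 describes neither. Mfn2, a mitofusin of the outer membrane, was at 0.28 ± 0.12, with 3 probes in a narrow band from 0.27 to 0.30. Mfn1, the other mitofusin, was at -0.05 ± 0.17, with signals of 1343 and 1273 for the brighter probe. Among the fission genes, Dnm1l was at -0.25 ± 0.16. Its bright probe, with signals of 8286 and 7838, gave -0.08, and a dim probe gave -0.42. Mff was at -0.15 ± 0.10 with all 4 probes below 0, and Fis1, an outer membrane anchor protein, was at 0.15 ± 0.14 with both probes above 0.

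The prohibitins and the matrix chaperonin are abundant partners of imported proteins. Prohibitins form a ring-shaped scaffold in the inner membrane. Phb had signals of 31885 and 36128, and of 27659 and 34057, a difference of 0.24 ± 0.14 from probes that share 51 bases. Phb2 was at 0.04 ± 0.14, with its probes on either side of 0. Hspd1 (HSP60) and its lid Hspe1 (HSP10) fold proteins in the matrix. Hspd1 read below the control with both probes, at signals of 60928 and 46544 and of 12523 and 9911, or 77.7% of control, a difference of -0.36 ± 0.14. Of all genes measured, 17.2% had a value as low or lower. Hspe1 was at 0.01 ± 0.12 over 3 probes, the brightest with signals of 47669 and 47917. Hspd1 and its partner thus had unlike values on these arrays, and neither reached 1.5-fold.

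Tfam, which packs mitochondrial DNA and starts its transcription, was lower with both of its probes. The signals were 1332 in the control and 826.5 in the knockdown for the brighter probe, and 848.0 and 480.8 for the other. The difference was -0.75 ± 0.14, or 59.3% of control. Among the 24 members with at least 2 probes measured, Tfam, Tomm5 and Tomm22 were the 3 in which every probe was at least 1.5-fold lower, which is 12.5%, beside 4.31% of the 7244 genes of the array with as many probes. Probes of opposite sign were found in 6 of those 24 members (25%) and in 32% of those genes.

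**Figure D3:**
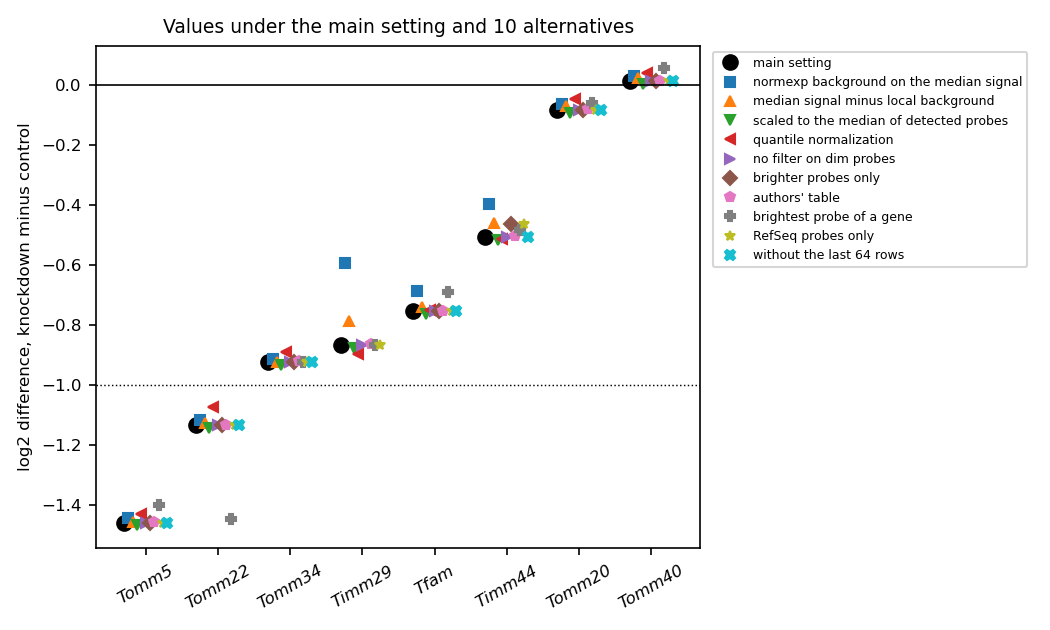
Log2 difference (y axis) of 8 members under the main setting (black) and up to 10 alternative settings (coloured symbols). Tomm5 and Tomm22 lie below the dotted 2-fold line under all 10, Timm29 moves up to -0.59 with another background correction, and Tomm20 and Tomm40 stay close to 0.

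Promoters are shown for the 5 members at least 1.5-fold lower and, for contrast, for Tomm70a, which was within 1.25-fold of the control. RefSeq promoter windows on GRCm38.p6, from 250 bases before to 50 bases after the transcript start, were found for 34 of the 37 members. They were searched on both strands for CCGGAAG (a core bound by ETS factors such as GABP), the NRF1 motif, CACGTG (the E-box), AAGATGGC (YY1) and TTCNNNGAA (the spaced palindrome bound by STAT factors). No matches of different motifs overlapped in the member windows. The 150 bases before the start are printed 5′ to 3′ on the strand of the gene, with ETS matches in capitals.
Tomm5, chr4:45108114-45108263, minus strand: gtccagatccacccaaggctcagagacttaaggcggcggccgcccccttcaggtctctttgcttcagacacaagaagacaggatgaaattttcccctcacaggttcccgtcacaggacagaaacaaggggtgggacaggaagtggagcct
Tomm22, chr15:79670718-79670867, plus strand: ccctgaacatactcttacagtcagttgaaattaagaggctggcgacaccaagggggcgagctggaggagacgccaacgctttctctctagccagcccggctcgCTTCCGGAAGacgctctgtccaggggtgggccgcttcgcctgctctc
Tomm34, chr2:164071170-164071319, minus strand: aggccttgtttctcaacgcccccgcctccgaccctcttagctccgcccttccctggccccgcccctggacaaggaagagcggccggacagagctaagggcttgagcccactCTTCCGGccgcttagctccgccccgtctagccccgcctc
Timm29, chr9:21592572-21592721, plus strand: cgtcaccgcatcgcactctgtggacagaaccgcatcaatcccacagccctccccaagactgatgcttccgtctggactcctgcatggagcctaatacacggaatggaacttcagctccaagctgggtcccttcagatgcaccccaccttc
Tfam, chr10:71238045-71238194, minus strand: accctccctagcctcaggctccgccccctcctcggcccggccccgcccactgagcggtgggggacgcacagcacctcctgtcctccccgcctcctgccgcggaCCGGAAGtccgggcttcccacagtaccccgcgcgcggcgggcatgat
Tomm70a, chr16:57121564-57121713, plus strand: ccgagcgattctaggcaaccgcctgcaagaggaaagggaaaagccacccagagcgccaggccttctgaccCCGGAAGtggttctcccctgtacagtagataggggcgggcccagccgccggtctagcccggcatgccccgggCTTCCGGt

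The ETS core was in the windows of 16 of the 34 members (47.1%), beside 9.93% of all 27025 genes with a window and 17.5% of the 12325 of them that were measured on both arrays. It was found for Tomm22, Tomm34, Tfam and Timm29, for the last outside the bases printed, and not for Tomm5. The other members with it were Dnm1l, Fis1, Hspd1, Hspe1, Mfn1, Phb2, Timm10, Timm10b, Timm23, Timm8a2, Timm8b and Tomm70a. Of these, Timm8a2 was not measured on both arrays and the rest were within 1.5-fold of the control. A link between the core and the differences was not tested. The median difference of the members with the core was -0.08, and of those without it -0.11. The NRF1 motif was in 5 members (14.7%, beside 5.19% of all genes with a window and 9.98% of those measured), the E-box in 8 (23.5%, beside 8.09% and 11.1%) and the YY1 motif in 1 (2.94%, beside 3.19% and 4.67%). The STAT palindrome was in the windows of Phb, Timm13 and Timm22, 3 members or 8.82%, beside 9.55% of all genes with a window and 8.42% of those measured. It was in none of the windows of the 5 members at least 1.5-fold lower, which says only that these letters are not in those 300 bases. A match describes the sequence and not binding.

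The genes around the members were given by 8 lists that hold 109 genes, of which 108 were measured. Their median difference was 0.06, with 62 above 0 (57.4%, beside 51.2% of all genes). Of the 108, 0 reached 2-fold on the higher side, where 3.67% of all genes did, and 2 on the lower side, which is close to the 2.41% of all genes. Chchd4, the oxidoreductase (MIA40) that traps small TIM and other cysteine-rich proteins after they pass TOM, had signals of 3257 and 1135, or 34.8% of control, a difference of -1.52 ± 0.20. A dim second Chchd4 probe passed the background filter only in the control. Trak2, an adaptor between mitochondria and motor proteins, was read by 1 probe with signals of 626.1 and 265.0, a difference of -1.24 ± 0.20.

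The other import genes lay mostly above 0 despite Chchd4. Of 26 measured, 17 were above 0, with a median of 0.15, and the highest was Immp2l, a subunit of the inner membrane peptidase, at 0.89 ± 0.14. In the MICOS list, the genes that shape cristae, 8 of 9 were above 0 with a median of 0.20. Chchd10 was read by 1 probe with signals of 8543 and 17085, a difference of 0.999 ± 0.20, just short of 2-fold. Chchd3 was the lowest at -0.03 ± 0.10. Chchd3 has no settled direction, because its 4 probes ran from -0.44 to 0.28 and its value was 0.23 with brighter or RefSeq probes only and 0.28 with the brightest probe. Over all genes 51.2% were above 0.

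The lists closest to Opa1 and Dnm1l had small medians of either sign. The 14 of 15 other fusion and fission regulators that were measured had a median of -0.13. Among the brighter genes they ran from Mtfr1, a fission regulator, at -0.73 ± 0.14 to Miga2, which promotes fusion, at 0.37 ± 0.20. The Miga2 value came from 1 measured probe. Gdap1 was well above background on neither array. The 13 genes of inner membrane and matrix quality control had a median of 0.06, with Clpx, the unfoldase of the matrix protease, lowest at -0.41 ± 0.14 and Spg7, a membrane protease subunit, highest at 0.36 ± 0.14. The 10 mitophagy genes had a median of -0.12. The brighter genes of that list ran from the mitophagy receptor Bnip3l at -0.43 ± 0.14 to another, Fundc1, at 0.54 ± 0.20 from 1 probe. The lowest of the whole list was Pink1, the kinase that marks damaged mitochondria, at -0.78 ± 0.15 or 58.2% of control. Its probes were at -1.04, in the last rows of the array, and at -0.52, outside them, with signals of 159.2 and 111.2. The 7 transport genes had a median of -0.14, and the highest of its brighter genes was Armcx3 at 0.27 ± 0.14. That value came from 1 probe at 0.55, in the last rows of the array, since the brighter Armcx3 probe, outside those rows, gave -0.0035.

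Around Tfam, the 19 genes of mitochondrial DNA and its transcription had a median of -0.07. Of them 10 were below 0, as were 48.8% of all genes. Tfb2m, the transcription factor that works with Tfam at mitochondrial promoters, was the lowest of the brighter genes at -0.71 ± 0.14, with probes at -0.82 and -0.59. Its paralog Tfb1m, a ribosomal RNA methyltransferase, was the highest of the brighter genes at 0.53 ± 0.20, from 1 measured probe. Over the whole list Mterf4 was higher, at 0.80, through 1 dim probe at 2.38 beside probes at 0.03 and -0.01. The probe at 2.38 lies in the last rows of the array. The 10 nuclear regulators of mitochondrial biogenesis had a median of 0.05. Nrf1 was lowest at -0.63 ± 0.12 and the coactivator Ppargc1b highest at 0.41 ± 0.14. Both Ppargc1b probes lie in the last rows of the array, so it has no value with those rows left out. The 3 Nrf1 probes ranged from -0.84 to -0.24, the last being the value with the brightest probe alone. The subunits of GABP are named here because their motif was searched. Gabpa was at -0.40 ± 0.12, Gabpb1 at -0.28 ± 0.12 and Yy1 at 0.37 ± 0.12. Their probes disagreed in size, from -0.67 to -0.07 for Gabpa, -0.54 to 0.04 for Gabpb1 and 0.16 to 0.76 for Yy1. The brightest probe of each gave -0.07, -0.10 and 0.18.

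**Figure D4:**
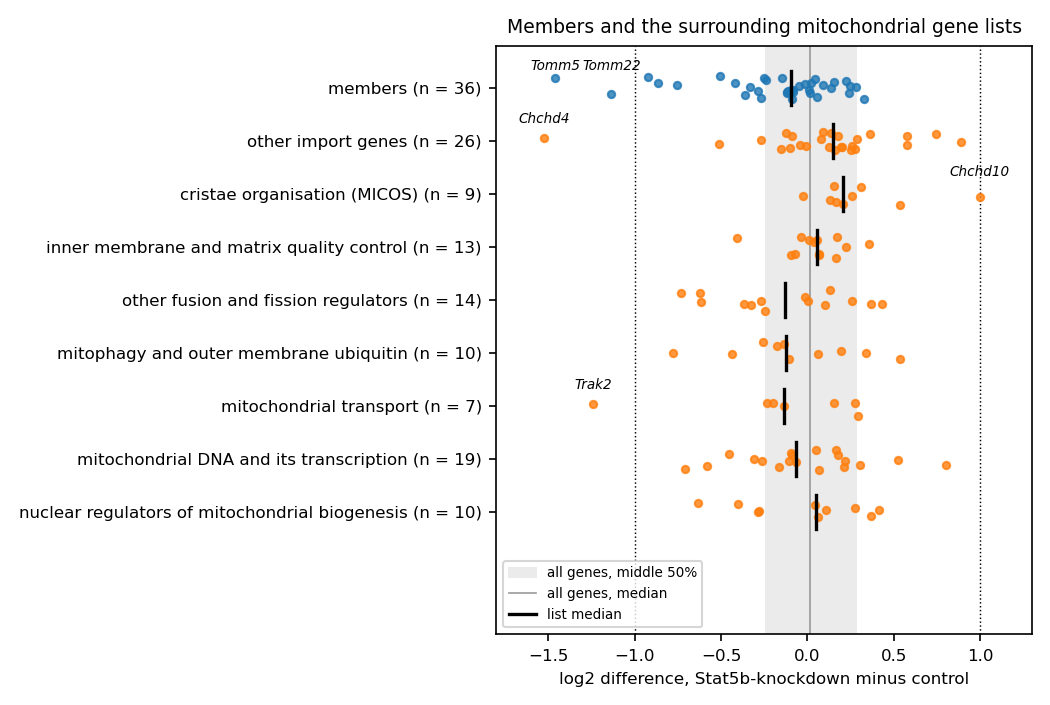
Log2 difference (knockdown minus control, x axis) of every measured gene in the member set (blue) and in 8 surrounding lists (orange), with black bars at each list's median and the middle 50% of all genes shaded. Vertical jitter only separates points; the named genes are those at or next to the dotted 2-fold lines, and the medians run from -0.14 for transport to 0.20 for MICOS.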

How the data were processed

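Per the file headers, each array was read with Agilent Feature Extraction 12.1.0.3, and the deposited files hold intensity values per spot (processed signal and its error, median signal and local background) and flags, deposited as a score of 0 or 1. The authors also deposited a table of log2 values. Each of its columns equalled log2 of the processed signal minus 1 constant, with column medians of -3.83 and -3.83.

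Spots flagged as outliers were left out, signals under 1 were set to 1, and log2 signals were averaged over the spots of a probe and scaled to the 75th percentile of each array. Probes that both arrays measured well above background were averaged to give a gene's value. Of the 77 member probes, 71 were so on both arrays, 2 on 1 array and 4 on neither. A bound sets the bright probe against the higher of the dim probe's level and the lowest level well above background. Member probes carry the array's own symbols, and 2 probes without a symbol but with a Timm10b accession were left out. Other probes were named by accession or symbol from RefSeq tables of GRCm38.p6, and 10425 had no name. Headers name build mm9, so gene coordinates are given for RefSeq promoter windows only.

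With 1 array in each group no p-value was computed. The number of arrays limits the precision. The members and lists were chosen with earlier results of these data known. Every member is described, and of each list the highest and lowest among the brighter genes and each gene at 2-fold. Pink1, Mterf4, Gdap1, Gabpa, Gabpb1 and Yy1 are named outside that rule, after their values were seen. Alternatives were another background correction (limma 3.58.1 in R 4.3.3), scaling, probe filter, probe choice and array rows, and the authors' table. The scripts were tested on simulated data.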

Additional observations from a re-analysis of the deposited data

How the results depend on the processing

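No paired analysis was possible because each group was 1 array, and for the same reason no replicate could be left out. The arrays shared 1 slide, which left no slide to use as a block. Normexp on the mean signal was not run, since the files used here hold no mean signal, and normexp on the median signal was chosen after seeing the data. Over 10 alternatives 29 of the 36 members kept their sign, and the 7 that did not (Mfn1, Opa1, Phb2, Timm10b, Timm23, Timm8b and Timm9) had differences of at most 0.25 in size. Tomm5 (-1.47 to -1.40), Tomm22 (-1.45 to -1.07), Chchd4 (-2.03 to -1.45) and Trak2 (-1.25 to -1.03) stayed at least 2-fold lower in all 10, and Chchd10 reached 2-fold higher in 2. Without the filter on dim probes Timm8a2 made the third member at 2-fold. The median of the members ran from -0.10 to -0.06.

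Counts over all genes at 2-fold moved, and the number of genes measured was not the same in every setting. In the main setting 394 of 16354 genes were lower and 600 higher. With normexp 167 of 16354 were lower and 191 higher, and the cause was not tested. With no filter 1000 of 26878 were lower and 1282 higher, and the median of all genes moved to 0.10. With brighter probes only, 229 of 10362 were lower and 211 higher. Some list medians moved, and the cause was not tested. That of other fusion and fission regulators was -0.0419 with normexp, -0.064 with median signal minus local background, -0.0565 with no filter, -0.0206 with brighter probes only and -0.0216 with the brightest probe of a gene. That of mitophagy genes was, in the same order, -0.0318, -0.0436, 0.0915, -0.0208 and -0.0288. Transport was at -0.0767 with normexp, mitochondrial DNA at 0.0516 with no filter, and biogenesis regulators at -0.0266 with the brightest probe.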
